A study of Schizosaccharomyces pombe with 15 samples.

Results

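Readthrough past the encoded T run is described here for U6 small nuclear RNA of fission yeast, Schizosaccharomyces pombe. A readthrough end was defined as one that begins with at least 8 Ts and goes on with at least the 4 genomic bases that follow the run of 9 Ts after the U6 gene, snu6. Of 111582 lines of distinct ends over all 19 files, 379 met this rule. They held 3713 reads, which is 0.0164% of all reads with an end sequence, and 214 different sequences.

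The series read U6 3′ ends by 3′ RACE, in which an adapter is ligated to RNA ends and U6 is amplified from the ligated RNA and sequenced. There were 15 libraries and each strain or treatment had a single library, so values have no replicates. The 4 tagged strains carried a tagged U6 gene beside the endogenous one. They were mpn1Δ tU6wt and mpn1Δ tU6-C36A, which lack mpn1, and tU6-C36A and tU6-wt, which keep it. Each gave 1 file for tagged and 1 for endogenous U6. The untagged strains without mpn1 were mpn1Δ, mpn1Δrrp6Δ and cid14Δmpn1Δ. The untagged strains with mpn1 were rrp6Δ, cid14Δ, cid11Δ, cid12Δ, cid16Δ and wt. RNA of all these was treated with polynucleotide kinase (PNK), an enzyme that removes the 3′ phosphates that block adapter ligation. It was left out of 1 further library each of rrp6Δ and wt. All cells grew logarithmically at 30 °C. The labels do not say where the tagged gene lies, which promoter drives it or what follows it in the DNA, and the C36A change is given by its name alone.

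RNA polymerase III, which transcribes U6, stops and releases its transcript at a run of Ts in the coding strand, so most new U6 ends in Us. Transcripts that pass such a run carry downstream sequence, and a later run of Ts can serve as a further place to stop. Mpn1 is the homolog of human USB1, an exoribonuclease that trims the U tail of U6. Rrp6 is the exonuclease of the nuclear exosome that degrades RNA from its 3′ end. Cid14 is the poly(A) polymerase of the TRAMP complex, which marks nuclear RNA for the exosome, and Cid11, Cid12 and Cid16 are further nucleotidyltransferases of the same fold.

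In the ASM294v3 assembly snu6 spans 2562276 to 2562419 of chromosome I, on the minus strand. Exon 2 ends the gene and spans 2562276 to 2562323. The 9 encoded Ts occupy 2562266 to 2562274, outside the annotated gene. The 60 bases after them overlap 0 annotated genes, and the nearest annotated gene downstream is 306 bases away on the plus strand. The region chrI:2562206-2562294, read 5′ to 3′ on the minus strand, is shown because every readthrough end is read against it, with the T run in capitals.

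snu6 end and downstream: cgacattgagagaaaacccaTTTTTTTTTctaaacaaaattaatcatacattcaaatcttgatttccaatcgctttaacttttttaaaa

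The first 29 bases past the run were A or T at 23 positions. Their longest run of Ts had 2 bases. The next run of at least 4 Ts, a run of 6, begins after 50 bases. Listed ends stopped almost entirely at 38 bases: at most 0.00923% of the reads of any file were longer and 0 readthrough ends were. A transcript could therefore be followed for 29 bases past a run of 9 Ts, and the run of 6 Ts downstream lay out of view.

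Each readthrough end was split into its Ts, the longest stretch that matched the genome, and a tail of whatever came after. The ends below were chosen by a rule based on read counts, and they carry the comparisons that follow. Capitals mark the tail, the bases that no longer match the genome.

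Commonest in tagged U6 of tU6-wt: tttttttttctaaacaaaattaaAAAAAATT
Commonest in tagged U6 of tU6-C36A: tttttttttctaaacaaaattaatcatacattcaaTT
Commonest in tagged U6 of mpn1Δ tU6wt: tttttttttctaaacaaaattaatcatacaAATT
Next in tagged U6 of tU6-C36A: tttttttttctaaacaaaattaatc
Next in tagged U6 of tU6-wt: tttttttttctaaaAATT
Commonest in wt, cid11Δ, cid12Δ, cid16Δ and wt (NO PNK): tttttttttctaaacaaaatta
In 9 files: tttttttttctaaac
In 9 files: tttttttttctaaacaaaattaTT
In 5 files: tttttttttctaaacaaaattaatT

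Since 23 of the 29 bases are A or T, an added A or T that equals the next genomic base is counted as genomic. An inserted or changed base ends the match early, so a tail can also hold genomic sequence that resumes after it. The bases after the tagged gene are not known here, so in tagged files a tail means bases that differ from the snu6 locus, which may be encoded.

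Readthrough reads kept the whole T run. Of the 3639 reads that matched at least 6 bases past the run, with any number of Ts before them, 94.8% had 9 Ts, 1.40% had 8 and 3.27% had 10. Of these reads 3 had fewer than 8 Ts. In the 11 untagged libraries members had 9 Ts in 80.8% of 755 reads, 8 in 6.36%, 10 in 10.2% and 11 or more in 2.65%. Members just inside the limit on downstream bases were rare: 6 reads ended after 4 bases, 16 after 5 and 51 after 6, with nothing added. Just outside it, 26 reads ended after 3 bases, 205 after 2 and 365 after 1, all after at least 8 Ts. Just outside the limit on Ts, 36 reads had 7 Ts and at least 4 downstream bases, and all of them matched fewer than 6.

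Levels are given as readthrough reads per 1000000 reads with an end sequence (RPM), with exact Poisson 95% intervals. The files held 408281 to 3966962 such reads, so 0 reads allowed between 0.756 and 7.35 RPM, taking 3 reads as the limit. Molecules were amplified by PCR and carried no molecular identifiers, so all intervals and limits cover counting error only. The share of reads with an uncalled base, N, in the end also set libraries apart: 0.0217% to 0.0244% in cid11Δ, cid12Δ, cid16Δ and wt (NO PNK), 0.00249% to 0.00598% in the 8 files of tagged strains, and at most 0.000142% in the other 7 libraries.

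**Figure D1:**
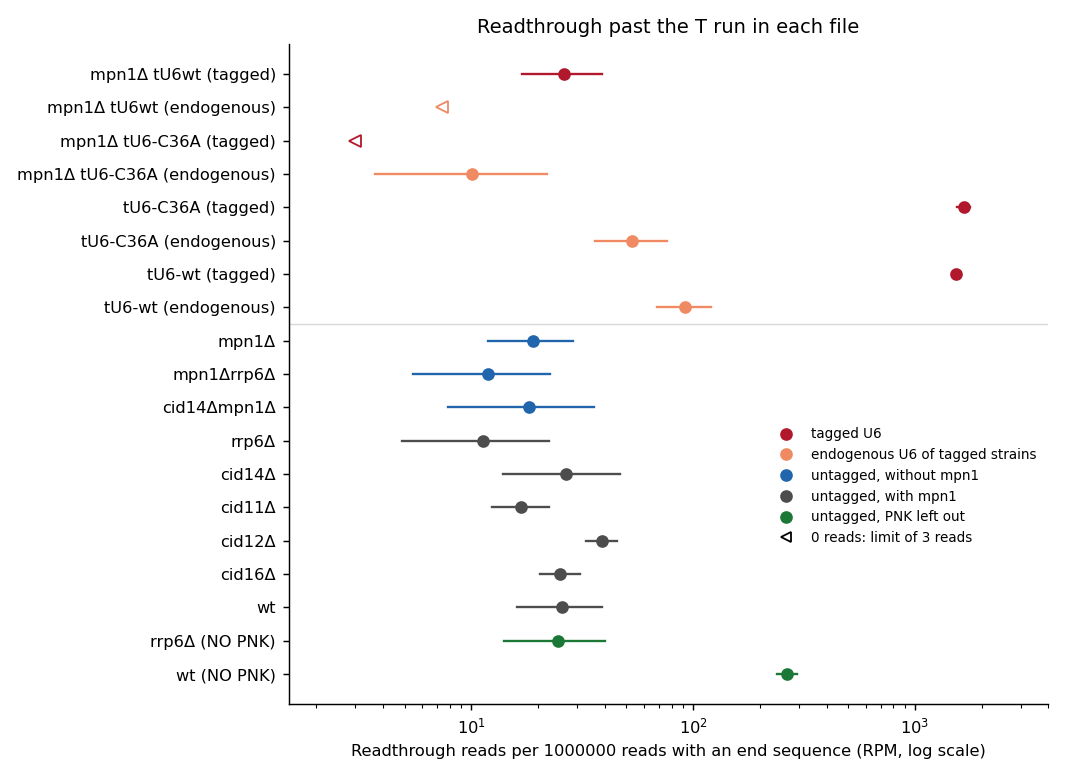
Readthrough RPM (log axis) in each of the 19 files. Points are single libraries, bars are exact Poisson 95% intervals, and open triangles stand at the limit that 0 reads allow. Tagged U6 of tU6-C36A and tU6-wt stands at 1657 and 1533 RPM, whereas the 9 untagged PNK-treated libraries lie between 11.3 and 38.8.

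Readthrough was most frequent in tagged U6 of the strains that keep mpn1. It had 1533 RPM in tU6-wt (1464 to 1605), against 91.9 in endogenous U6 of the same cells (68.6 to 121). In tU6-C36A it had 1657 in tagged U6 (1555 to 1764), against 53.3 in endogenous U6 (35.9 to 76.0). These ratios were 16.7 (12.7 to 22.4) and 31.1 (21.7 to 46.4), so both lay far outside counting error.

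In the tagged strains without mpn1 the same contrast was small or turned round. Tagged U6 of mpn1Δ tU6wt had 26.2 RPM (17.0 to 38.7), against 0 in its endogenous U6, at least 3.57-fold higher with 3 reads as the floor of that file. Tagged U6 of mpn1Δ tU6-C36A had 0 reads, against 10.1 RPM in its endogenous U6 (3.70 to 21.9), at least 3.38-fold lower. Over the 4 strains tagged U6 averaged 804 ± 915 RPM and endogenous U6 38.8 ± 42.3 (SD, n = 4 each), and the mean difference was 765 ± 877 (SD). Tagged U6 was higher in 3 of 4 strains. By a two-sided exact sign-flip test p was 0.25 (Benjamini-Hochberg adjusted over 2 tests 0.25). With 4 strains this test cannot pass 0.05.

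Readthrough was also taken as a share of readthrough plus ends of 8 or more Ts alone, called T-only ends. Other ends that ran on past the Ts were left out of this share. Readthrough made up 17.5% in tagged U6 of tU6-wt (16.8 to 18.2) and 5.68% in its endogenous U6 (4.27 to 7.38). It made up 13.01% in tagged U6 of tU6-C36A (12.3 to 13.8) and 0.916% in its endogenous U6 (0.619 to 1.31). In mpn1Δ tU6wt it made up 4.16% in tagged U6 (2.71 to 6.08) and 0 in endogenous U6 (0 to 0.484). In mpn1Δ tU6-C36A it made up 0 in tagged U6 (0 to 0.171) and 0.405% in endogenous U6 (0.149 to 0.879). Tagged U6 also held more ends of 8 or more Ts alone in the strains with mpn1: 7240 RPM in tU6-wt, against 1527 in its endogenous U6, and 11082 in tU6-C36A, against 5759. As a share of readthrough plus T-only ends, readthrough was thus higher in tagged U6 in 3 of 4 strains, and lower in mpn1Δ tU6-C36A. The size of the gap depends on ends of 8 Ts alone. With T-only ends counted from 9 Ts, tagged U6 of tU6-wt had 1864 readthrough and 3482 T-only reads, against 52 and 144 in its endogenous U6. Tagged U6 of tU6-C36A had 981 and 740, against 30 and 71. By this count tagged U6 stayed higher in both strains, but by a smaller ratio.

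The reads of tagged U6 sat on very few ends. In tagged U6 of tU6-wt, 1864 reads had 13 distinct ends, and 1804 of them, 96.8%, were the single end whose tail is 6 As and 2 Ts. In tagged U6 of tU6-C36A, 981 reads had 17 distinct ends, 844 of them, 86.0%, being 1 end that matched 26 bases and then had 2 Ts. In tagged U6 of mpn1Δ tU6wt, 23 of 25 reads were 1 end, with 21 genomic bases and the tail AATT. Joining ends that differed by 1 change left 4, 5 and 1 ends in these 3 files. The libraries of untagged strains spread few reads over many ends instead: wt (NO PNK) had 365 reads on 114 ends and 58 after joining, its commonest end holding 14.8%, and cid12Δ had 154 reads on 71 ends and 35 after joining. Few ends were not particular to tagged U6. Endogenous U6 had 3 readthrough ends in tU6-wt, 2 in tU6-C36A and 1 in mpn1Δ tU6-C36A. Over all reads, files of tagged strains held 677 to 1816 distinct ends of any kind, against 3097 to 41925 in untagged libraries.

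**Figure D2:**
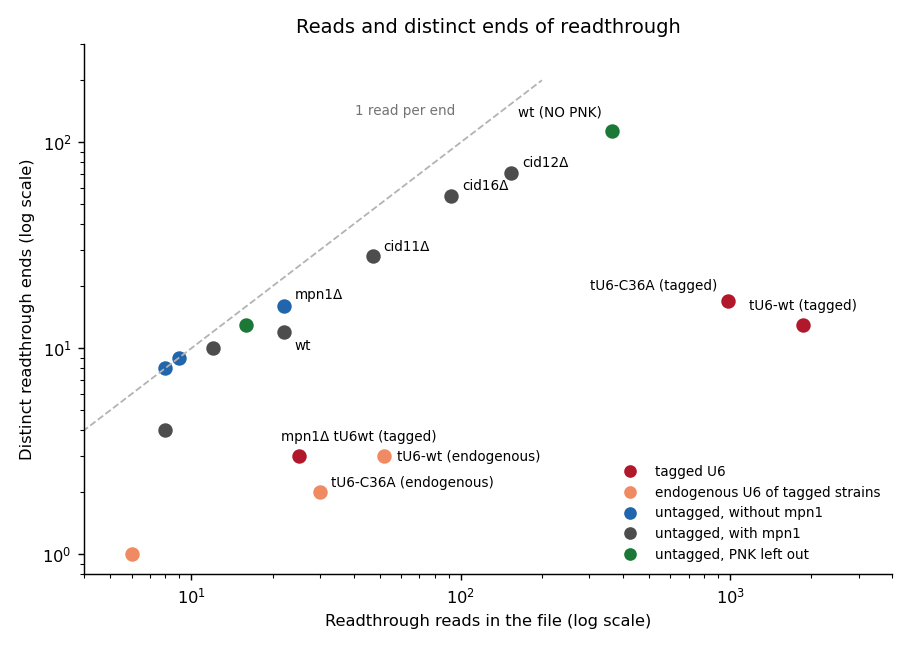
Readthrough reads per file (log axis) against the number of distinct readthrough ends (log axis), 1 point per file with reads; files with at least 20 reads are named, and the dashed line marks 1 read per end. Tagged U6 of tU6-wt has 1864 reads on 13 ends, whereas wt (NO PNK) has 365 reads on 114.

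The commonest end of each tagged file differed between strains. That of tU6-wt was found in 2 files, both of tU6-wt, with 1804 reads in tagged and 49 in endogenous U6. That of tU6-C36A had 844 reads in tagged and 29 in endogenous U6, with 4 more in wt (NO PNK) and 2 in cid16Δ. That of mpn1Δ tU6wt was in its tagged file alone. A further end of tagged tU6-C36A, with 26 reads, had the 14 genomic bases and the 6 As and 2 Ts of the commonest tU6-wt end and then ATT. It is shown because it carries that end within it.

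tU6-C36A, 26 reads: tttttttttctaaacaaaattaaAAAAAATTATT

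Readthrough reads of endogenous U6 in the tagged strains with mpn1 were the ends of the tagged file. All 52 reads in endogenous U6 of tU6-wt, on 3 ends, and all 30 in that of tU6-C36A, on 2 ends, were ends also listed for tagged U6 of that strain. For the commonest end, the endogenous reads came to 2.72% of the tagged reads in tU6-wt and 3.44% in tU6-C36A. Whether reads of tagged U6 are counted in the endogenous files was not tested. In mpn1Δ tU6-C36A the 6 endogenous reads were 1 end, with 10 Ts, 13 genomic bases and 2 further Ts, and its tagged file held 0 reads to share.

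With the commonest end of each file left out, a choice made after seeing the data, tagged U6 of tU6-wt kept 49.4 RPM, against 5.30 in its endogenous U6. Tagged U6 of tU6-C36A kept 231 and its endogenous U6 kept 1.78. The ratios were then 9.31 in tU6-wt (3.04 to 46.4) and 130.4 in tU6-C36A (23.0 to 5186), from 3 and 1 endogenous reads. The mean difference over 4 strains was then 69.0 RPM (exact sign-flip p = 0.25). Counted as distinct ends per 1000000 reads, tagged and endogenous U6 differed by a mean of 8.01. The difference in RPM was thus much smaller without these ends, while tagged U6 stayed above endogenous U6 in both strains.

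Tagged C36A and tagged wild-type U6 with mpn1 present had totals within counting error of each other. Tagged tU6-C36A had 1657 RPM and tagged tU6-wt had 1533, a ratio of 1.08 (0.999 to 1.17). By reads they stopped at different places: 26 bases was the median in tagged tU6-C36A and 14 in tagged tU6-wt, with both quartiles at the median in each. Over distinct ends the medians were 16 in tagged tU6-C36A and 13 in tagged tU6-wt, so the gap by reads reflects the commonest end of each. Between single libraries no test was made.

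Deletion of mpn1 went with fewer readthrough reads of endogenous U6 over all strains, and the tagged strains carried most of that difference. Over PNK-treated libraries the 5 mpn1-deleted strains averaged 11.8 ± 7.66 RPM and the 8 mpn1-positive strains 36.2 ± 26.0 (SD). The values without mpn1 were 18.98 RPM in mpn1Δ, 18.2 in cid14Δmpn1Δ, 11.9 in mpn1Δrrp6Δ, 10.1 in mpn1Δ tU6-C36A and 0 in mpn1Δ tU6wt. Those with mpn1 were 11.3 at the lowest, in rrp6Δ, 26.2 at the median and 91.9 at the highest, in tU6-wt. The 2 sets overlapped, with 6 of 8 mpn1-positive strains above the highest mpn1-deleted one.

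The difference was -24.4 RPM (two-sided exact permutation p = 0.0202, adjusted over 2 tests 0.0404). In the untagged strains alone the means were 16.4 ± 3.88 without mpn1 (SD, n = 3) and 24.1 ± 9.42 with it (SD, n = 6), a difference of -7.74 (exact permutation p = 0.262). The call was also lost when ends listed in the tagged file of the same strain were left out, a choice made after seeing the data (-6.25, exact permutation p = 0.387), and in distinct ends per 1000000 reads (-2.61, exact permutation p = 0.531). Without mpn1Δ tU6wt the difference was -21.4 (exact permutation p = 0.0525), and with only ends that match the genome throughout it was -6.44 (exact permutation p = 0.193). The strains also differ in other genes and in library set, so the p-values measure the spread between them.

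Within backgrounds, 4 of 5 pairs had fewer readthrough reads without mpn1. The difference was -91.9 RPM in tU6-wt cells and -43.2 in tU6-C36A cells. It was -8.58 in cid14Δ, -6.63 in wt and 0.563 in rrp6Δ. The mean over the 5 pairs was -29.9 ± 38.5 (SD), which did not pass an exact sign-flip test, and 5 pairs cannot pass 0.05 there. In reads, mpn1Δ had 22 and wt had 22, cid14Δmpn1Δ had 8 and cid14Δ had 12, and mpn1Δrrp6Δ had 9 and rrp6Δ had 8. The ratios of RPM for these 3 untagged pairs were 0.741 (0.391 to 1.40), 0.679 (0.241 to 1.81) and 1.05 (0.359 to 3.13), and each interval includes no difference.

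In tagged U6, by contrast, the 2 files without mpn1 lay far below those with it. Tagged U6 of mpn1Δ tU6wt had 26.2 RPM, against 1533 in tU6-wt, a ratio of 0.0171 (0.0110 to 0.0253). Tagged U6 of mpn1Δ tU6-C36A had 0 reads, against 981 in tU6-C36A, at least 557-fold lower by RPM. Each side is 1 library, and the abundant ends of the mpn1-positive strains were listed with 0 reads in both mpn1-deleted tagged files.

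In the untagged libraries readthrough reads stopped over the whole length in view. Over their 755 reads, of which 365 come from wt (NO PNK), the median stop was 13 bases past the run, with quartiles of 11.5 and 15 bases. Stops at 12 to 15 bases held 51.3% of reads and 40.0% of distinct ends. The single commonest stop, at 13 bases, held 180 reads or 23.8%, and 43 of 340 distinct ends. Stops at 6 bases held 7.02% of reads. The match ended after 5 bases in 40 reads, of which 16 had no tail and 12, in 5 files, had 1 extra A and then went on along the genome. Stops at 20 or more bases held 14.97%. Of the readthrough reads short enough to be listed, most thus ended within the first 15 bases. Longer readthrough was out of view and is not part of these shares.

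**Figure D3:**
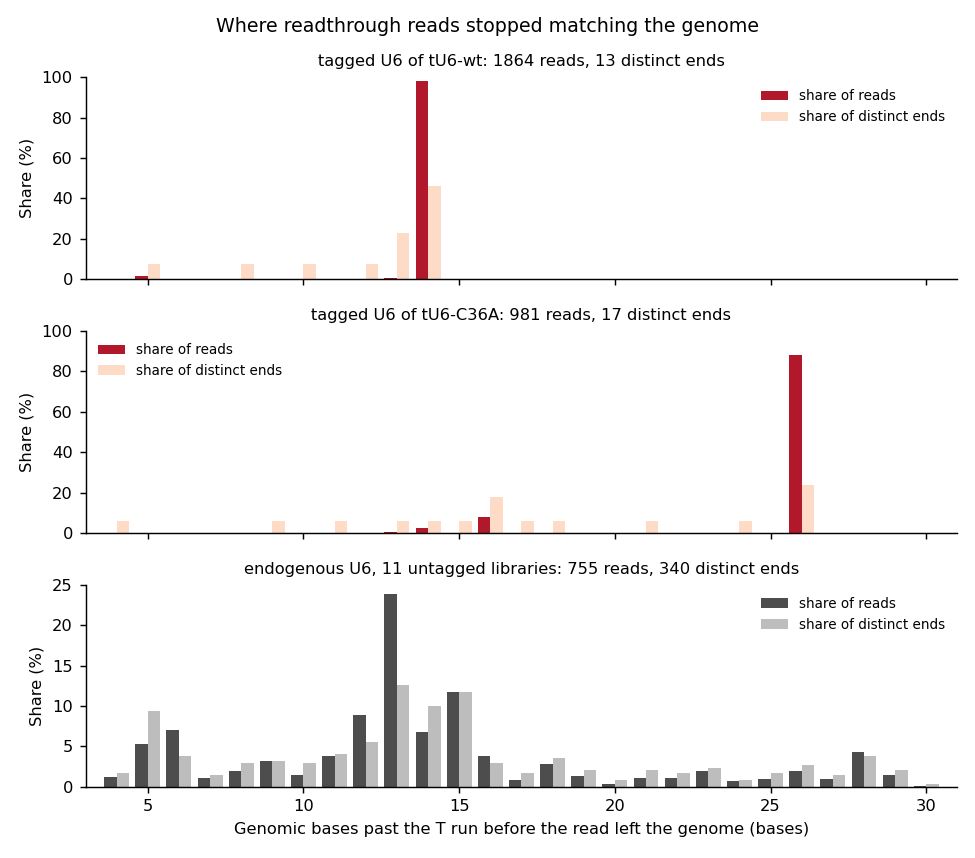
Share of readthrough reads (dark bars) and of distinct ends (light bars), in percent, by the number of genomic bases matched past the T run, in tagged U6 of tU6-wt, tagged U6 of tU6-C36A and the 11 untagged libraries together. Tagged reads stand on 14 and on 26 bases, and untagged reads peak at 13 bases with 23.8% of reads.

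The median stop was 13 bases in cid11Δ, cid12Δ, cid16Δ, wt and wt (NO PNK), each with at least 20 reads. It was 9.5 bases in mpn1Δ, from 22 reads with quartiles of 6 and 13, against quartiles of 9 and 14 from 22 reads in wt. Counted over distinct ends, the medians were 11 in mpn1Δ and 14 in wt. In rrp6Δ 5 of 8 reads were the end that stops at 6 bases, which held 1 of 22 reads in wt. The whole 29 bases with no tail were read in 11 reads of 6 files, so some transcripts went on to the edge of the view.

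Stops recurred between libraries. Leaving out the Ts, there were 149 distinct downstream parts, of which 101 were in 1 file alone and 14 in at least 5 files. The stop at 15 bases with no tail was in 11 files, all of untagged strains. The stop at 13 bases with 2 further Ts was in 11 files, among them tagged U6 of tU6-wt and tU6-C36A. The stop at 13 bases with no tail held 132 reads in 9 files and that at 16 bases 109 reads in 8 files, 79 of the 109 in tagged tU6-C36A and 1 in its endogenous U6.

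Most readthrough reads of tagged U6 had a tail of A and T past the snu6 match, and the share was lower in untagged strains. Whether the tagged tails are encoded after the tagged gene was not tested. In the tagged files 96.8% of 2870 readthrough reads had a tail made only of A and T (96.0 to 97.4), against 30.99% of 755 in the 11 untagged libraries (27.7 to 34.4). Of untagged reads, 63.7% had no tail, 20.5% Ts only, 5.83% As only, 4.11% As then Ts and 5.30% a tail with C or G. Of the 155 reads with Ts only, 86 had 1 T, 54 had 2 and 15 had 3 or more. Over distinct ends the A or T share was 57.6% in tagged files and 37.9% in untagged libraries, a smaller gap.

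In tagged U6 all 870 reads with a T-only tail had exactly 2 Ts, and 97.0% of all tagged readthrough reads ended in TT after the genomic part, against 12.2% of untagged ones. Only tail bases were counted, so the 12.2% leaves out untagged ends whose last 2 bases are TT but partly or wholly genomic. Among these were the stop at 15 bases with 1 further T, of 36 reads, and the stop at 12 bases with no tail, of 60. The single commonest tagged end of each of tU6-wt, tU6-C36A and mpn1Δ tU6wt had a different stop, but all 3 ended in TT. In endogenous U6 of the tagged strains 87 of 88 reads did so.

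**Figure D4:**
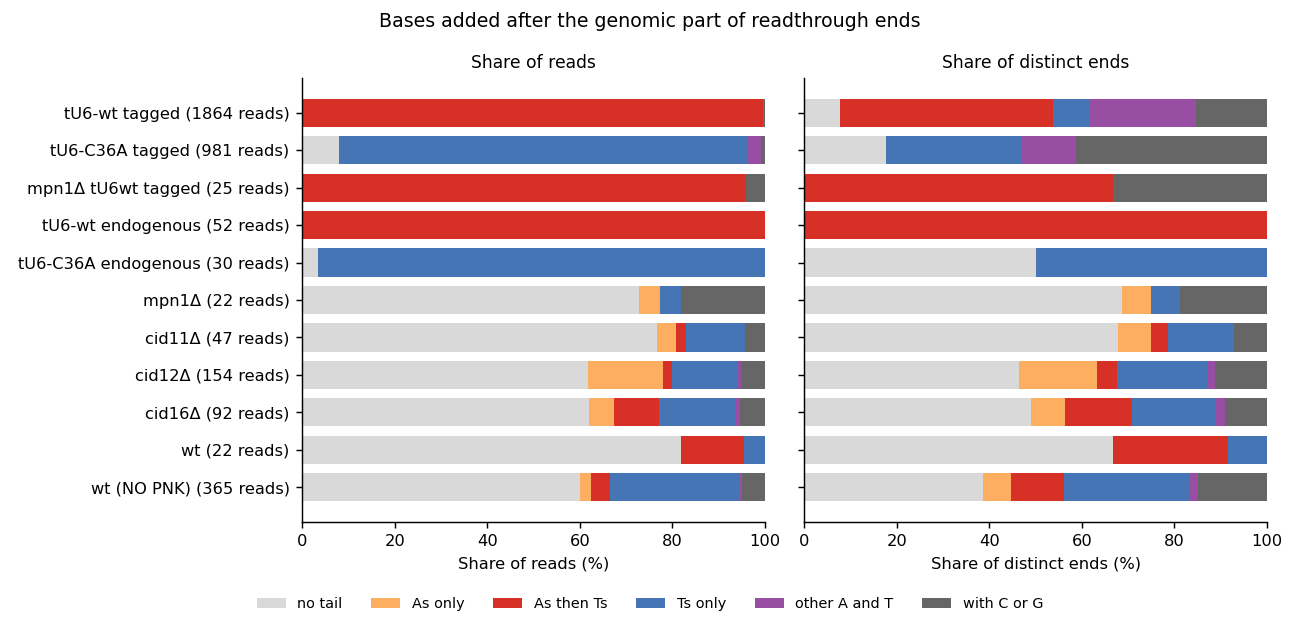
Share of readthrough reads (left) and of distinct ends (right), in percent, by the kind of tail after the genomic part, in the 11 files with at least 20 readthrough reads. Tagged U6 of tU6-wt is nearly all As then Ts and tagged U6 of tU6-C36A mostly Ts only, whereas no tail is the commonest kind of read in all 6 untagged files.

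Tails varied with the stop in untagged libraries. After 13 bases 130 of 180 reads had no tail and 46 had Ts only. After 15 bases, where the genome goes on with C, 40 of 89 reads had Ts only and 34 had none. After 28 bases, also before a C, 20 of 33 had Ts only, and after 18 bases 16 of 21. The stops at 15, 18 and 28 bases each end in a genomic T. A tail of Ts that began a base earlier is therefore counted at these stops, with its first T taken as genomic. These shares thus cannot tell at which base the added Ts began. After 14 bases 40 of 51 reads had a tail with A, but the 14th genomic base is itself an A, so a tail of As after 13 bases is counted at this stop. After 6 and 16 bases, both ending in C, 51 of 53 and 29 of 29 reads had no tail. The genome goes on with A after both, so a tail that began with A is counted at a later stop.

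Among single untagged libraries the A or T share was 9.09% in mpn1Δ (2 of 22 reads, 1.12 to 29.2), 19.1% in cid11Δ (9.15 to 33.3), 33.1% in cid12Δ (25.8 to 41.1) and 32.6% in cid16Δ (23.2 to 43.2). It was 18.2% in wt (5.19 to 40.3) and 35.1% in wt (NO PNK) (30.2 to 40.2). The 3 untagged libraries without mpn1 held 6 such reads of 39, 15.4% (5.86 to 30.5), and the 6 PNK-treated ones with mpn1 held 97 of 335, 28.96% (24.2 to 34.1). These intervals overlap. Tails of As only held 16.2% of reads in cid12Δ (10.8 to 23.0), 4.26% in cid11Δ (0.520 to 14.5), 5.43% in cid16Δ (1.79 to 12.2) and 0 of 22 reads in wt, whose interval reaches 15.4%. In wt (NO PNK) tails of As only held 2.47% (1.13 to 4.63), an interval below that of cid12Δ, but PNK treatment differs between these 2 libraries. At these counts differences in tails between the untagged strains were mostly not detectable.

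Tails with C or G were 48 of 379 members and held 52 reads. Of these, 19 were 1 change away from the genomic sequence. The part of read errors in them was not tested.

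Leaving PNK out went with more readthrough reads in wt. Readthrough was 25.6 RPM in treated wt (16.1 to 38.8) and 265 in wt (NO PNK) (238 to 293). The difference, treated minus left out, was -239 (-269 to -209) and the ratio 0.0968 (0.0599 to 0.149). In rrp6Δ it was 11.3 in the treated library (4.89 to 22.3) and 24.6 with PNK left out (14.1 to 40.0), a difference of -13.3 (-29.97 to 1.95), whose interval includes 0. Only wt differed beyond counting error, and the difference between the 2 strains was not tested.

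In wt the reads that end at the T run moved the same way, with 2170 RPM of 8 or more Ts alone in the treated library and 8224 with PNK left out. Readthrough was 1.17% of readthrough plus T-only ends in treated wt (0.732 to 1.76) and 3.12% in wt (NO PNK) (2.81 to 3.45). In rrp6Δ the T-only ends were 1937 RPM in the treated library and 1645 with PNK left out. There readthrough was 0.582% of readthrough plus T-only ends in the treated library (0.252 to 1.14) and 1.48% with PNK left out (0.846 to 2.39). The wt libraries come from different sets by uncalled bases, at 0% of reads in treated wt and 0.0244% in wt (NO PNK), and set and treatment cannot be told apart. Both rrp6Δ libraries had at most 0.000142%.

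The median stop was 13 bases in treated wt, with quartiles of 9 and 14, and 13 in wt (NO PNK), with quartiles of 12 and 15. The end of 9 Ts and 13 genomic bases was the commonest in each, with 6 of 22 reads in treated wt and 54 of 365 in wt (NO PNK). Reads with no tail were 18 of 22 in treated wt (59.7% to 94.8%) and 219 of 365 in wt (NO PNK) (54.8% to 65.1%).

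In RPM, the ratios of the other 5 single deletions to wt had counting intervals that include 1. cid12Δ had 38.8 RPM (32.9 to 45.5), cid14Δ 26.8 (13.8 to 46.7), cid16Δ 25.2 (20.3 to 30.9) and cid11Δ 16.8 (12.4 to 22.4), and wt had 25.6. Their ratios to wt were 1.52 (0.966 to 2.49), 1.04 (0.471 to 2.20), 0.985 (0.614 to 1.65) and 0.657 (0.388 to 1.14). That of rrp6Δ was 0.443 (0.170 to 1.03). As a share of readthrough plus T-only ends, readthrough was 3.74% in cid16Δ (3.03 to 4.57), 2.23% in cid12Δ (1.89 to 2.60) and 1.75% in cid11Δ (1.29 to 2.33), against 1.17% in wt (0.732 to 1.76). Fewer T-only ends raise this share: they stood at 649 RPM in cid16Δ, 1705 in cid12Δ and 942 in cid11Δ, against 2170 in wt. The intervals of cid16Δ and cid12Δ lie above that of wt, and that of cid11Δ overlaps it. These 3 libraries are of the set with more uncalled bases and wt is not, so set and deletion cannot be told apart.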

How the data were processed

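Per the labels' protocols, 3 µg of PNK-treated total RNA were ligated to 120 pmol of adapter, reverse-transcribed and amplified with primers for U6 or tagged U6. The submitters' processing notes name CASAVA 1.8.2 and cutadapt. For the aligner, the genome build and the separation of tagged from endogenous reads, the sources used here give nothing. The deposited files hold raw read counts per end sequence after the constant part of U6, and tagged files were known by the word exogenous in their names. The 1 line per file without a sequence was left out of denominators, so reads per 1000000 (RPM) are over reads with a sequence. The ASM294v3 reference gave coordinates and downstream bases.

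Ends were split into T run, longest genomic match and tail. Shares have exact Clopper-Pearson 95% intervals, counts exact Poisson ones, and ratios exact intervals conditional on the summed reads. The interval of a difference combines those of both values. Tests were two-sided and exact. The members, groups and lists were chosen with earlier results of these data known. Named ends were the 10 commonest over all files, and the 3 commonest and every end of at least 10% in each file with 20 or more readthrough reads. The ends of 26 and 6 reads in tagged strains and other ends outside that rule were named after their values were seen. Of 1000 simulated ends built from the reference, 1000 were read back as made. These were built without tails that begin with the next genomic base, so the check says nothing about how such tails are split. Of 200 simulated unchanged draws of 5 against 8 values, 9 had an exact p of at most 0.05. Replicate numbers do not pair samples here, since each group has 1 library; pairs were strains of the same background. Alternatives were other limits on Ts, bases and reads, subsets and single libraries left out. Scripts ran in Python 3.11.15 with SciPy 1.17.1, NumPy 2.4.6 and, for figures, Matplotlib 3.10.9.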

Additional observations from a re-analysis of the deposited data

Results flagged for a closer look

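Ends of 8 Ts and the first 2 downstream bases, too short for the definition of readthrough, stood at 237 RPM in tagged U6 of tU6-C36A, from 140 reads. They had 0 reads in tagged U6 of tU6-wt, which allows up to 2.47 RPM, and at most 8 reads in any other file. This signal lies outside the measurement the comparisons use.

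Readthrough made up 5.68% of readthrough plus T-only ends in endogenous U6 of tU6-wt. This was far above the other 3 endogenous files of tagged strains, of which the highest was 0.916%. This was 1 of 18 sets of values examined for a library apart from the rest, and chance flags about 1 in 20. The gap to tU6-C36A depends on ends of 8 Ts alone. With T-only ends counted from 9 Ts, the endogenous file of tU6-wt had 52 readthrough and 144 T-only reads. The tU6-C36A one had 30 and 71, so by this count tU6-wt did not stand above it.

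The effect of mpn1 deletion on endogenous U6 was 0.563 RPM in rrp6Δ and below 0 in the other 4 backgrounds. The difference between backgrounds was not tested.

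Tagged minus endogenous U6 was -10.1 RPM in mpn1Δ tU6-C36A and above 0 in the other 3 tagged strains. The difference between strains was not tested.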

How the results depend on the processing

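The mean difference between mpn1-deleted and mpn1-positive strains was below 0 under all 26 alternatives, with an exact permutation or sign-flip p of 0.00758 to 0.531. It was -16.4 to -27.9 with each library left out in turn, and lost its call without mpn1Δ tU6wt (-21.4, exact permutation p = 0.0525). It also lost its call in untagged strains (-7.74), in ends that match the genome throughout (-6.44) and without ends also in the tagged file (-6.25). The same held for distinct ends per 1000000 reads (-2.61) and the replicate block of 5 pairs of the same background (-29.9 RPM). An exact sign-flip test over 5 pairs cannot pass 0.05. Tagged minus endogenous U6 was above 0 under all 14 alternatives, 486 to 1024 with each strain left out, and 33.3 for ends that match the genome throughout.

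The PNK difference in wt was below 0 throughout and moved to -192 for exactly 9 Ts, -200.5 for ends of at least 2 reads, -138 for genome-matching ends, -207 without the commonest end and -68.7 in distinct ends per 1000000 reads. The A or T share over all files, 83.4%, was 80.4% for tails of at least 2 bases, 40.4% of distinct ends, 86.5% for ends of at least 2 reads and 29.7% for tails of 1 kind of base. The median stop over all files was 14 bases in all settings. Single files moved in 11 of 33 alternatives for the median stop and 19 of 44 for the A or T share. In 8 files readthrough had fewer than 20 reads, which limits what those libraries can show.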
